A study of Mus musculus with 6 samples.

Results

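The salt-inducible kinases (Sik1, Sik2 and Sik3), the CREB-regulated transcription coactivators (Crtc1, Crtc2 and Crtc3) and the transcription factor genes Creb1 and Crem were followed in the anterior cingulate cortex (ACC) of adolescent mice. These 8 genes were taken by symbol from the 14250 rows of the deposited expression table, and all 8 had 1 row each. They were chosen by the LPS against saline differences in expression measured in these same libraries, so their own differences are given as a description, without p-values, and support nothing further. The LPS group held 3 C57BL/6 mice injected intraperitoneally on postnatal day 14 with lipopolysaccharide (LPS, a bacterial endotoxin, 50 µg per kg). The saline group held 3 C57BL/6 mice injected on the same day with pyrogen-free saline. The tissue of both groups was dissected by hand on postnatal day 45, 1 mouse per library, and polyadenylated RNA was sequenced. The sources used here do not give the sex or litter of a mouse, and a single early injection is the only treatment the labels name.

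CREB1 binds cAMP response elements in promoters and is switched on by phosphorylation after cAMP or calcium signals. CRTC proteins are its coactivators: phosphorylated CRTCs are held in the cytoplasm by 14-3-3 proteins, and the phosphatase calcineurin releases them to the nucleus. The salt-inducible kinases, which need activation by LKB1 and are inhibited by protein kinase A (PKA), phosphorylate the CRTCs and class IIa histone deacetylases. Sik1 is itself a target gene of CREB, which makes it a feedback brake on the pathway. In neurons CRTC1 is the main form and links synaptic activity to transcription. These steps act on proteins, and RNA levels do not report phosphorylation or location.

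The promoter sequences below show where the core of the cAMP response element lies in a kinase gene of the set and in 3 of the 4 CREB target genes that edgeR called lower in LPS mice (values further on), chosen because they hold matches. They come from RefSeq windows on GRCm38.p6 that run from 250 bases before to 50 bases after a gene start, and windows of 5 of the 8 genes (Sik2, Sik3, Crtc1, Crtc3 and Creb1) were read. The half-site TGACG was searched on both strands (CGTCA on the other), as was the full palindrome TGACGTCA, which contains both half-sites. Each stretch lies upstream of the start, is written 5′ to 3′ in the direction of the gene and carries every match of that upstream part in capitals. The positions are chr9:46012672-46012782 on the + strand for Sik3, chr15:101266598-101266825 on the + strand for Nr4a1, chr2:57124095-57124218 on the - strand for Nr4a2 and chr17:26508593-26508678 on the - strand for Dusp1.
Sik3: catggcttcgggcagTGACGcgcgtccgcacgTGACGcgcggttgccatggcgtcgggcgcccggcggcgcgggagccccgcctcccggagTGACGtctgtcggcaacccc
Nr4a1: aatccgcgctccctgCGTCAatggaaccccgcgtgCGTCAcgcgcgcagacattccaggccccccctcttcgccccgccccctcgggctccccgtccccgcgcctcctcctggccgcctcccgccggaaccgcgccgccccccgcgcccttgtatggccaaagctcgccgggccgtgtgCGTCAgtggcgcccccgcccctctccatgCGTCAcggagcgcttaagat
Nr4a2: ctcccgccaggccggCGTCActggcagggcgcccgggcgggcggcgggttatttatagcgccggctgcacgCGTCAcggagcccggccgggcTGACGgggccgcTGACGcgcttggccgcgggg
Dusp1: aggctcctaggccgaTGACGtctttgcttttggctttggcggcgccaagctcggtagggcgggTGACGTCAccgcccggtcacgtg
Sik3 had 3 half-sites in these letters, Nr4a1 and Nr4a2 had 4 each, and Dusp1 had the full palindrome besides 1 further half-site. Among all 27025 genes with a window, 23.0% held a half-site and 2.03% the palindrome. Of the 5 genes of the set with a window, 2 held a half-site (Sik3, and Sik2 at and just after its start) and 0 the palindrome, while Crtc1, Crtc3 and Creb1 had no match in these 300 bases. Of the 17 CREB target genes with a window that was read, 15 held a half-site and 4 the palindrome. Gadd45b, the other CREB target called lower by edgeR, had a window with no match of either kind. These matches describe the letters and do not show binding.

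The libraries summed to 36168687 to 41270737 counts for LPS mice and 37416194 to 39804999 counts for saline mice. Levels are given as CPM (counts scaled to library size with TMM factors) for comparison of libraries, and as the authors' FPKM (per length and depth) for comparison of genes. Of 60 marker genes fixed for 12 cell types and neighbouring tissues, 56 were measured, and edgeR called 0 of them different between the groups (0.288% of all rows were called) and so did DESeq2. At an unadjusted edgeR p under 0.05 there were 6 (10.7%), against 7.17% of all rows. The excitatory cortical neuron marker Slc17a7, a vesicular glutamate transporter gene, had 1735, 1653 and 1669 CPM in LPS libraries and 1705, 1620 and 1521 CPM in saline libraries. Some markers separated the groups without passing the adjusted test. Gad2, the inhibitory neuron gene for a GABA-synthesizing enzyme, had 139, 131 and 138 CPM in LPS libraries and 108, 103 and 126 CPM in saline libraries. Lhx6 and Slc32a1 of the same list and Gpr17 of oligodendrocyte precursors also lay above saline in every LPS library, and the microglial gene C1qa lay below. These were 3 of 7 inhibitory neuron genes, 1 of 4 precursor genes and 1 of 6 microglial genes, where 13.7% of all rows did not overlap. Other genes of these lists leaned the other way with overlap: Pvalb (log2 -0.03), Olig2 (-0.12), Tmem119 (0.08) and Csf1r (0.04). Nothing is read from the markers without overlap. The microglial receptor gene Cx3cr1 had the largest log2 change of the markers, 1.504 (SE 0.829), with 5.41, 35.3 and 36.1 CPM in LPS libraries and 5.68, 10.5 and 10.9 CPM in saline libraries. LPS 1 lay below every saline library in it, so the groups overlapped, and Saline 1 was the lowest saline library. Whether these markers bear on the 8 genes was not tested. The summed markers overlapped between the groups for 11 of the 12 lists. The exception was the blood cell list, where only Ptprc was measured, which had 3.58 to 4.14 CPM for LPS mice and 2.96 to 3.57 CPM for saline mice, all after perfusion of the animals. Ptprc nearly met between LPS 2 and Saline 3, at 3.584 and 3.575 CPM, and edgeR did not call it. The share of counts in rows without an annotated gene (newGene) did not overlap between the groups either. It was between 1.61% and 2.03% for LPS mice and between 2.51% and 2.93% for saline mice, and its part in the results was not tested. In bulk tissue, fewer cells of a type and less RNA per cell cannot be told apart.

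Sik1 was the gene of the set with the largest difference. Sik1 (ENSMUSG00000024042, chr17:31844250-31855804 on GRCm38, - strand), the inducible kinase of the family, had 785, 693 and 605 counts in LPS 1, LPS 2 and LPS 3, against 1860, 1671 and 1464 counts in Saline 1, Saline 2 and Saline 3. Scaled to library size, Sik1 was at 18.7, 17.1 and 16.6 CPM in LPS libraries and 48.7, 41.7 and 38.5 CPM in saline libraries. Every LPS library lay below every saline library, and the lowest saline value was above 2 times the highest LPS value. The LPS mean was 17.5 ± 1.11 CPM and the saline mean 43.0 ± 5.23 CPM (SD, n = 3 each), so LPS mice had 40.7% of the saline level. The fitted log2 change was -1.30 (SE 0.10). The authors' FPKM gave 3.53 ± 0.281 in LPS and 8.70 ± 0.831 in saline libraries, a log2 ratio of -1.30. No exon of another annotated gene overlaps Sik1.

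Sik2, a kinase of CRTCs in fat and neurons, had values that leaned the other way. Sik2 (chr9:50892801-51009073, - strand) was at 28.6, 40.3 and 36.1 CPM in LPS 1, LPS 2 and LPS 3, against 27.3, 30.0 and 24.6 CPM in the saline libraries. LPS 1 fell inside the saline range, while LPS 2 and LPS 3 lay above it. The fitted log2 change was 0.36 (SE 0.131). In FPKM, Sik2 had 6.10, 8.17 and 7.34 in LPS libraries and 5.51, 6.04 and 5.12 in saline libraries. These do not overlap, but the gap between LPS 1 and Saline 2 is small beside the spread within each group.

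The last exons of Sik2 share 1429 bases, 14.98% of its exon bases, with Ppp2r1b, a gene for a scaffold subunit of protein phosphatase PP2A that lies on the opposite strand. No source used here says that the library kit preserved strand, so reads from that stretch cannot be assigned to either gene with certainty. Ppp2r1b had 17.9, 7.39 and 14.8 CPM in LPS libraries and 12.9, 13.5 and 10.9 CPM in saline libraries. LPS 2, the library with the highest Sik2, had the lowest Ppp2r1b, and LPS 1, the LPS library with the lowest Sik2, had the highest Ppp2r1b. The sum of both genes was 46.5, 47.7 and 50.9 CPM in LPS libraries and 40.2, 43.5 and 35.5 CPM in saline libraries. The sums did not overlap between the groups, and their log2 change was 0.28 (SE 0.0846), with means of 48.3 ± 2.28 CPM in LPS and 39.7 ± 4.06 CPM in saline libraries (SD, n = 3 each). Whether shared reads set the split between the 2 genes was not tested.

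**Figure D1:**
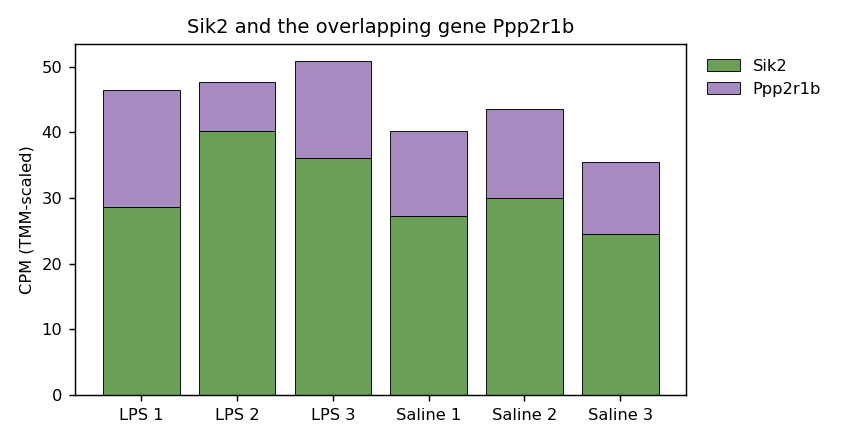
Stacked bars give CPM of Sik2 (lower part) and of its overlapping neighbour Ppp2r1b (upper part) in each library, LPS at the left. The summed height is 46.5 to 50.9 CPM in LPS and 35.5 to 43.5 CPM in saline libraries, while the split varies most between LPS 1 and LPS 2.

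Sik3, the kinase known in mice for its role in sleep need and cartilage growth, was the most abundant of the family and differed little between the groups. Sik3 (chr9:46012820-46224194, + strand) had 170, 198 and 176 CPM in LPS libraries and 183, 176 and 175 CPM in saline libraries. The groups overlapped, with a log2 change of 0.03 (SE 0.0676).

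The make-up of the kinase family by FPKM differed between the groups. The 3 shares are parts of the same sum, so a lower Sik1 by itself raises the shares of Sik2 and Sik3. Sik1 made up 8.07%, 6.41% and 7.06% of the summed kinase FPKM in LPS 1, LPS 2 and LPS 3, against 17.95%, 16.3% and 15.6% in Saline 1, Saline 2 and Saline 3. Sik2 made up 12.8% to 15.5% across LPS libraries and 10.1% to 11.5% across saline libraries. Sik3 made up 77.5% to 79.1% across LPS libraries and 71.7% to 74.3% across saline libraries. Its own FPKM overlapped between the groups (38.5 ± 2.27 in LPS and 38.0 ± 0.312 in saline libraries), so its share shows no change of Sik3. The ratio of Sik1 to Sik2 in FPKM was 0.631, 0.413 and 0.456 in LPS libraries, so Sik2 was the higher of the pair in each. The same ratio was 1.74, 1.42 and 1.55 in saline libraries, where Sik1 was the higher in each. Which of the pair is higher depends on the gene lengths behind the FPKM, which were not given. It also depends on the Sik2 reads from the stretch shared with Ppp2r1b. The summed FPKM of the kinases was 47.5 to 52.7 across LPS libraries and 50.8 to 53.4 across saline libraries, which overlap.

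**Figure D2:**
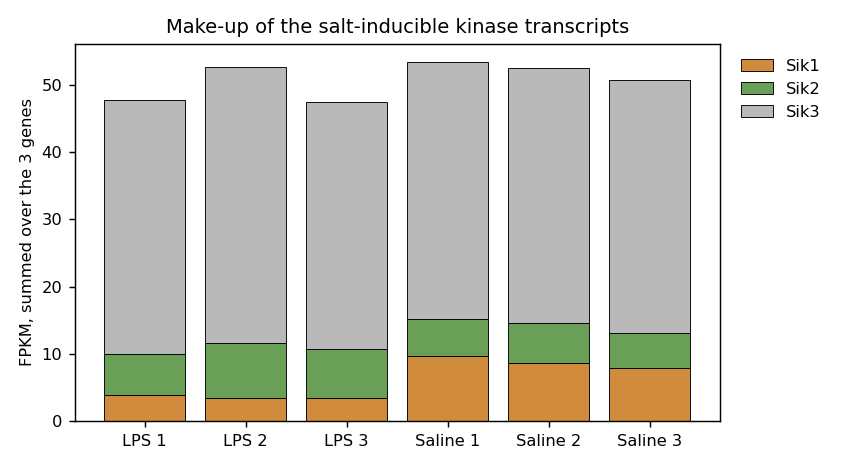
Stacked bars give the authors' FPKM of Sik1, Sik2 and Sik3 in each library, LPS at the left. The Sik1 part is 3.35 to 3.85 FPKM in LPS and 7.94 to 9.59 FPKM in saline libraries, and Sik3 is the largest part of every bar.

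The coactivator genes showed small differences. Crtc1 (chr8:70382355-70439579, - strand), the main coactivator of neurons, had 294, 322 and 299.8 CPM in LPS libraries and 321, 311 and 283 CPM in saline libraries. The groups overlapped, with a log2 change of 0.0016 (SE 0.0653). Crtc2 (chr3:90254163-90264125, + strand), known for its control of glucose production in liver, had 24.99, 24.5 and 27.0 CPM in LPS libraries and 24.3, 21.8 and 23.6 CPM in saline libraries. Every LPS value of Crtc2 was above every saline value in CPM, but by a margin of 24.5 CPM in LPS 2 against 24.3 CPM in Saline 1, and in FPKM the groups overlapped. The log2 change of Crtc2 was 0.13 (SE 0.0794). Crtc3 (chr7:80586627-80688877, - strand), a coactivator studied in fat and pigment cells, had 25.3, 27.2 and 25.4 CPM in LPS libraries and 24.8, 24.4 and 25.5 CPM in saline libraries, with a log2 change of 0.06 (SE 0.0717). Crtc1 made up 77.5% to 79.2% of the summed coactivator FPKM in LPS and 78.1% to 80.7% in saline libraries.

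Creb1 was set apart by 1 library. Creb1 (chr1:64532645-64604548, + strand), the transcription factor that the CRTCs bind, had 2011, 1933 and 1453 counts in LPS libraries, against 506, 1941 and 1838 counts in Saline 1, Saline 2 and Saline 3. In CPM these were 48.0, 47.8 and 39.8 in LPS libraries and 13.3, 48.5 and 48.3 in saline libraries. Saline 1 was at 0.333 times the lowest other library, while Saline 2 and Saline 3 lay just above the highest LPS library. The log2 change was 0.30 (SE 0.550) over all 6 libraries and -0.10 (SE 0.0971) without Saline 1, so its sign rests on that library. In FPKM, Saline 1 had 2.79 and the other 5 libraries 5.14 to 5.73. The FPKM that Saline 1 gives per count of Creb1 was 1.81 times the median of the libraries for that gene, where only 0.422% of gene and library pairs departed by over 1.5-fold. The authors' count and FPKM of Creb1 thus give different sizes for the low value in Saline 1. Single low values of this kind occurred in every library. Of 11604 rows with a mean of at least 5 CPM, 19 were at 0.5 times the lowest other library or less in Saline 1, against 9 to 26 in each of the other libraries.

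Crem (chr18:3266048-3337748, - strand), which codes for activators and, from an internal promoter, for the inducible repressor ICER, had 8.30, 8.40 and 7.75 CPM in LPS libraries and 8.64, 8.04 and 8.67 CPM in saline libraries. The groups overlapped, with a log2 change of -0.05 (SE 0.105). The table holds 1 row for Crem, so ICER cannot be told apart from the other transcripts of the gene. Its exons share 472 bases, 8.01% of its exon bases, with an unmeasured transcript on the opposite strand.

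**Figure D3:**
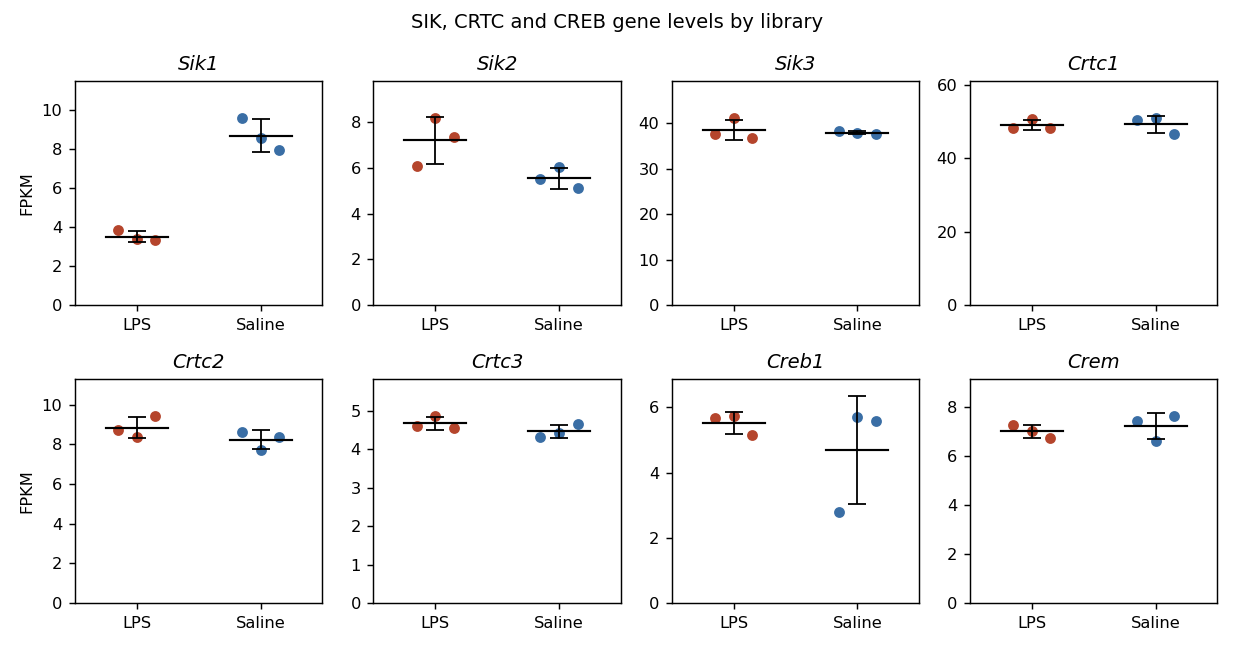
Points give the authors' FPKM of each of the 8 genes in each library, with LPS left of saline, long lines for group means and error bars for the SD (n = 3 each). Sik1 is separated between the groups, at 3.35 to 3.85 across LPS libraries and 7.94 to 9.59 across saline libraries, and Creb1 has a single low point at 2.79 in the saline group.

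By FPKM the order of the genes in LPS libraries was Crtc1 (49.0 ± 1.39), Sik3 (38.5 ± 2.27), Crtc2 (8.84 ± 0.528), Sik2 (7.204 ± 1.04), Crem (7.02 ± 0.272), Creb1 (5.52 ± 0.329), Crtc3 (4.68 ± 0.167) and Sik1 (3.53 ± 0.281, SD, n = 3 each). Sik2 and Crem were the only neighbours in that order whose ranges overlapped. In saline libraries the order was Crtc1 (49.2 ± 2.35), Sik3 (38.0 ± 0.312), Sik1 (8.70 ± 0.831), Crtc2 (8.24 ± 0.481), Crem (7.24 ± 0.539), Sik2 (5.56 ± 0.462), Creb1 (4.69 ± 1.65) and Crtc3 (4.47 ± 0.171). There the ranges overlapped for Sik1 with Crtc2, Sik2 with Creb1, and Creb1 with Crtc3. By this FPKM, Sik1 took place 8 of 8 in LPS and place 3 of 8 in saline libraries, while Crtc1 and Sik3 led in both. The order depends on the gene lengths behind the FPKM, which were not given. In LPS libraries Crem averaged 8.15 CPM and Sik1 17.5 CPM, with 5895 and 5133 annotated exon bases. Crem thus stood above Sik1 only through the lengths used for the FPKM, and the places hold for this measure alone.

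Across the set, edgeR's quasi-likelihood test over all rows put 1 of the 8 genes (Sik1, lower in LPS) past an adjusted p of 0.05, where 0.288% of all rows passed. DESeq2 also called 1 of 8, where it called 0.983% of all rows. Nothing is read from these shares because the contrast chose the genes. In CPM the groups did not overlap for 2 of 8 genes (Sik1 lower, Crtc2 higher), where 13.7% of all rows did not overlap, and in FPKM for 2 of 8 (Sik1 lower, Sik2 higher), where 12.3% did not and 5.87% lay higher in LPS. The log2 changes of the 7 genes other than Sik1 ran from -0.05 to 0.36. The median log2 change was 0.04 over the 8 genes and 0.0014 over all rows. Spread within groups was smallest for Crtc3, with a pooled SD of 0.046 on the log2 CPM scale, and largest for Creb1 at 0.77. For Sik1 it was 0.14, larger than in 57.5% of all rows.

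No gene from the lists of regulators of this pathway passed the test. Of 83 such genes in 9 lists, 82 were measured, and edgeR and DESeq2 called 0 of them, with 9 (11%) at an unadjusted edgeR p under 0.05, where 7.17% of all rows were. The median log2 change of the 82 was 0.0049. By edgeR's test, adjusted p was at least 0.420 for each gene named from these lists in the next sentences, so the values are given as differences that did not pass. The groups did not overlap in CPM for 13.7% of all rows, so nothing is read from a named gene without overlap.

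Upstream of the kinases, the LKB1 list (5 of 5 measured, none called) had log2 changes of -0.03 to 0.10, with Strada, a partner of LKB1, at 0.10 (SE 0.0850) and Cab39, its scaffold, at -0.03 (SE 0.0510). Strada shares 158 exon bases with Ccdc47, so its reads are uncertain. Among 9 PKA subunit and inhibitor genes the catalytic subunit gene Prkaca had 160, 159 and 159 CPM in LPS libraries and 152, 149 and 152 CPM in saline libraries, which do not overlap (log2 0.08, SE 0.0499). The second catalytic gene, Prkacb, had 199, 166 and 183 CPM in LPS libraries and 184, 551 and 179 CPM in saline libraries. Saline 2 alone was high in Prkacb, and the log2 change of -0.74 (SE 0.547) became 0.0082 without it. The calcineurin list of 6 had Rcan2, a calcineurin inhibitor gene, at -0.17 (SE 0.0670) and the catalytic subunit gene Ppp3ca at -0.13 (SE 0.0608).

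Downstream and parallel lists gave no call either. The 7 genes for 14-3-3 proteins had log2 changes of -0.12 (Ywhaq, SE 0.0705) to 0.17 (Sfn, an epithelial form), with Ywhag at 0.08 (SE 0.0619). The 7 measured genes of class IIa histone deacetylases and their partner MEF2 factors stayed within -0.03 to 0.07, with Mef2d at 0.06 (SE 0.0692) and Mef2a at 0.05 (SE 0.0611). Mef2a shares 302 exon bases with Lysmd4, and its log2 change was -0.00024 without Saline 2. Among 8 CREB partner genes, Taf4, a CREB-binding subunit of TFIID, had 24.6, 25.7 and 23.7 CPM in LPS libraries and 21.5, 22.1 and 20.2 CPM in saline libraries (log2 0.22, SE 0.0771), and the acetyltransferase gene Crebbp was at 0.15 (SE 0.0876). Among 11 genes for CREB kinases and kinases upstream of them, Camkk2, an upstream kinase gene, was at 0.14 (SE 0.0862) and Mapkapk2 at 0.10 (SE 0.0802).

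Of the 11 other kinases that depend on LKB1, the microtubule affinity kinase gene Mark1 had 138, 142 and 139 CPM in LPS libraries and 125, 125 and 121 CPM in saline libraries (log2 0.18, SE 0.0511), with no overlap. Mark4 was at 0.14 (SE 0.0568). Of 18 cAMP synthesis and breakdown genes, the phosphodiesterase gene Pde4d had 38.6, 40.5 and 39.1 CPM in LPS libraries and 47.0, 50.5 and 42.8 CPM in saline libraries (log2 -0.25, SE 0.0753). Pde1a, a calcium-dependent phosphodiesterase gene, had 264, 257 and 250 CPM in LPS libraries and 292, 285 and 287 CPM in saline libraries (log2 -0.16, SE 0.0510). Both lay below saline in every LPS library, and neither passed edgeR over all rows. Of the 18 genes, 4 lay below saline in every LPS library and 2 lay above, where 6.84% of all rows did in each direction. The 2 above are phosphodiesterase genes, and so are Pde4d and Pde1a among the 4 below.

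Among textbook target genes of CREB, several were lower in LPS mice. Of 23 genes, all measured, edgeR called 4 lower in LPS mice and 0 higher (17.4% of the list, where 0.189% of all rows were called lower), and DESeq2 called 9 lower. The median log2 change was -0.39, and it was 0.0014 over all rows. In 10 genes every LPS library lay below every saline library, where 6.84% of all rows did. Many of these genes are immediate early genes, whose lower level was known from these libraries when the list was drawn up, so the count is not independent of that result.

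The 4 called genes were Gadd45b, Nr4a1, Nr4a2 and Dusp1. Gadd45b, a stress and DNA demethylation factor gene, had 10.5, 10.5 and 10.4 CPM in LPS libraries and 19.8, 18.4 and 16.8 CPM in saline libraries (log2 -0.82, SE 0.0943, edgeR adjusted p = 0.00706). Nr4a1, which codes for an orphan nuclear receptor, had 128, 137 and 117 CPM in LPS libraries and 282, 284 and 222 CPM in saline libraries (log2 -1.04, SE 0.107, edgeR adjusted p = 0.00788). Its relative Nr4a2 had 17.6, 21.8 and 18.3 CPM in LPS libraries and 32.3, 31.8 and 30.1 CPM in saline libraries (log2 -0.71, SE 0.0947, edgeR adjusted p = 0.0159). Dusp1, a phosphatase gene of MAP kinases that shares 11 exon bases with Ergic1, had 29.7, 35.6 and 22.7 CPM in LPS libraries and 116, 103 and 101 CPM in saline libraries (log2 -1.86, SE 0.171, edgeR adjusted p = 0.0192). The count of 4 fell to 2 without LPS 1, without Saline 1 or without Saline 2. Nr4a1 lost its call without LPS 1 (log2 -1.05, edgeR adjusted p = 0.0591). Dusp1 lost it without LPS 1 or any 1 saline library, at log2 changes of -1.90 to -1.80 (edgeR adjusted p = 0.0754 to 0.132). Nr4a2 lost it without LPS 3, Saline 1 or Saline 2, at log2 changes of -0.70 to -0.67 (edgeR adjusted p = 0.0563 to 0.0802). In limma fits on FPKM, Nr4a2 missed the threshold too (adjusted p = 0.0576 with a pseudocount of 1 and 0.0656 with 0.1). Over all alternatives the log2 changes kept their sign. They ran from -2.02 to -1.70 for Dusp1, -0.81 to -0.61 for Nr4a2, -1.15 to -0.98 for Nr4a1 and -0.87 to -0.74 for Gadd45b.

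The other 5 genes that DESeq2 called lower missed the edgeR threshold, with every LPS library below every saline library in each. Arc, a synaptic early gene, averaged 193 ± 56.6 CPM in LPS and 645 ± 140 CPM in saline libraries (log2 -1.74, edgeR adjusted p = 0.293). The AP-1 subunit genes Fos (log2 -1.16, edgeR adjusted p = 0.132), Junb (-1.23, adjusted p = 0.217) and Fosb (-0.77, adjusted p = 0.345) had negative log2 changes too, and Junb shares 173 exon bases with Prdx2. Targets with values near 0 were Bdnf at a log2 change of -0.03 (SE 0.0726), Scg2 at 0.03 (SE 0.0869), Sst at 0.07 (SE 0.0795), Ppargc1a at 0.07 (SE 0.0759) and Penk at -0.0022 (SE 0.128). Nptx2, at 0.24, was the 1 target with every LPS library above saline. Scg2 and Sst carry the palindrome TGACGTCA in their window, as Dusp1 and Btg2 do. Btg2, an antiproliferative early gene, averaged 13.0 ± 5.10 CPM in LPS and 48.2 ± 5.26 CPM in saline libraries (SD, n = 3 each). Its log2 change of -1.89 (SE 0.302) missed the edgeR threshold (adjusted p = 0.212), while DESeq2 called it lower. The palindrome was thus present both in genes with large and in genes with small log2 changes.

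**Figure D4:**
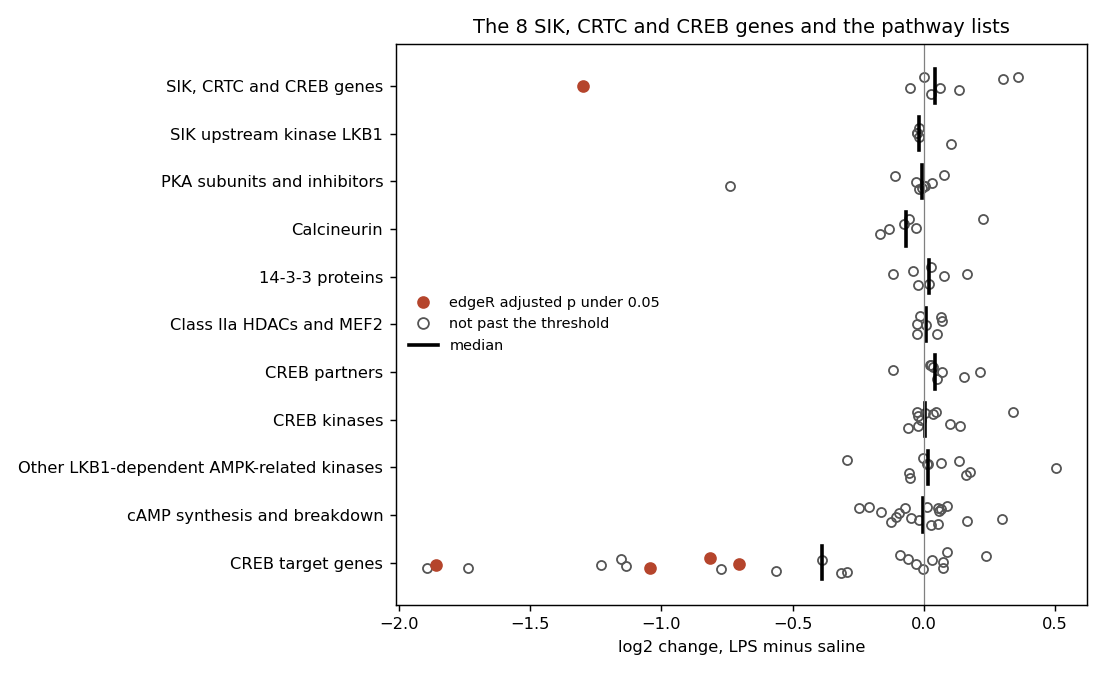
Each point is the log2 change (LPS minus saline) of 1 gene, by list, filled where edgeR's adjusted p was under 0.05, with a bar at each list's median. Sik1 stands at -1.30 among the 8 genes, the 9 regulator lists hold no filled point, and the CREB target list has its median at -0.39.

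Of 13190 annotated genes outside the set, the 5 with the profile most like Sik1 were Klf2, P2ry2, Trib1, Nr4a1 and Klf4. Likeness was the root mean square difference between the log2 CPM of both genes over the 6 libraries, each centred on its own mean, and it was 0.0955 for Klf2, 0.149 for P2ry2, 0.160 for Trib1, 0.164 for Nr4a1 and 0.178 for Klf4, where the median gene was at 0.666. Klf2, a zinc finger transcription factor gene known from endothelium, had 18.2, 17.1 and 16.5 CPM in LPS libraries and 41.5, 37.0 and 33.2 CPM in saline libraries. In both Sik1 and Klf2, LPS 1 was the highest LPS library and Saline 1 the highest saline library. Trib1, a pseudokinase gene, had 29.9, 25.8 and 22.6 CPM in LPS libraries and 58.7, 56.0 and 45.0 CPM in saline libraries. The purinergic receptor gene P2ry2 was low throughout, at 0.509 ± 0.117 CPM in LPS and 1.28 ± 0.0977 CPM in saline libraries, and the transcription factor gene Klf4 averaged 11.2 ± 0.837 CPM in LPS and 22.4 ± 3.67 CPM in saline libraries (SD, n = 3 each). These 5 were picked for their likeness to Sik1, so their differences are a description.

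**Figure D5:**
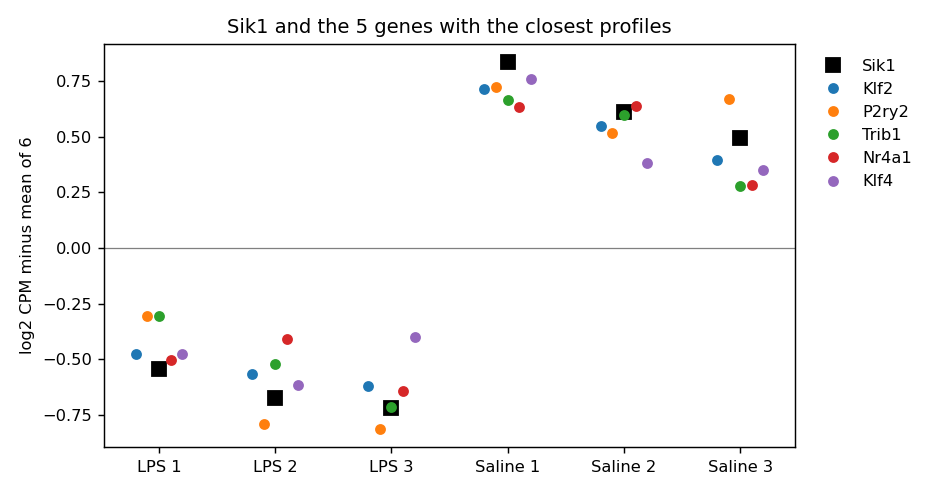
Points give log2 CPM minus the gene's mean over the 6 libraries, LPS at the left, with squares for Sik1 and circles, shifted sideways, for the 5 genes closest to it. All 6 genes lie below 0 in the LPS libraries and above 0 in the saline libraries, and Klf2 is the closest to Sik1 with a root mean square difference of 0.0955.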

How the data were processed

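Per the file headers, the deposited table holds unnormalized counts of reads beside FPKM for every gene in each of the 6 libraries. TopHat2 2.1, DESeq 1.10.1 and GRCm38 are named, per the submitters' processing notes, without their roles. The counting program, annotation release and gene length behind the FPKM were not given in the sources used here. Of the 14250 rows, 13562 carry an Ensembl identifier, 13559 of them found in GENCODE M21 (GRCm38), from which positions and exon overlaps were taken. In 23 rows the symbol had become a date and was replaced.

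Counts were tested with edgeR 4.0.16 in R 4.3.3 (quasi-likelihood test, robust option, TMM factors, treatment as the only term, all 6 libraries). P-values were adjusted by the Benjamini-Hochberg method over all rows, with a threshold of 0.05, and filterByExpr removed 0 rows. The test was also run on counts simulated with the spread that edgeR estimated from these libraries, so that run cannot judge the estimate of the spread. Log2 changes are LPS relative to saline with a standard error (SE). P-values set the difference between the groups against the spread between the 3 mice per group, with the estimate of that spread drawn together over all rows. Each edgeR SE was computed from the log2 change and the F statistic of the test.

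Alternatives were RLE factors, total counts only, DESeq2 1.42.0, limma-voom (limma 3.58.1), an adjusted p of 0.1, no filter, only rows averaging 50 counts or more, limma on log2(FPKM + 1) or log2(FPKM + 0.1) with a mean FPKM of at least 0.5, each library left out, and the replicate number as a block. Summing Sik2 with Ppp2r1b was added after seeing the data. The genes and lists were chosen with earlier results of these data known. Named were the 8 genes, in each regulator or target list the called genes or else the 2 with the smallest p, and the 5 genes closest to Sik1 (log2 CPM, prior count 2). Sfn, the exon-overlapping gene Ppp2r1b, the target genes Arc, Fos, Junb, Fosb, Nptx2, Bdnf, Scg2, Sst, Ppargc1a, Penk and Btg2, the marker genes and the promoters shown were picked once their values had been seen. The summed level of 1 marker list is not reported here.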

Additional observations from a re-analysis of the deposited data

How the results depend on the processing

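Sik1 had log2 changes of -1.37 to -1.10 under the 16 alternatives, the smallest on log2(FPKM + 1), which understates changes of low genes by construction. These are reprocessings of the values that chose the gene and add no support. Leaving out 1 library gave log2 changes of -0.10 to 0.55 for Creb1, 0.24 to 0.48 for Sik2, -0.05 to 0.04 for Crtc1 and -0.04 to 0.07 for Sik3, so the sign turned without Saline 1 for Creb1, without LPS 2 for Sik3, and without LPS 2 or Saline 3 and in both FPKM settings for Crtc1. Genes higher over all rows numbered 14, and 60 with DESeq2, 23 at a threshold of 0.1 and 8 with either FPKM setting; genes lower numbered 27, and 80 with DESeq2. CREB target genes lower numbered 4, and 9 with DESeq2 and 8 with limma-voom. Apart from the threshold, the cause was not tested. With each library omitted in turn, genes higher numbered 14 to 20, genes lower 22 to 35 and CREB targets lower 2 to 5. Without Saline 2 the log2 change of Prkacb was 0.0082 and that of Mef2a -0.00024, both of the other sign; over all such omissions Prkacb ran from -1.01 to 0.0082 and Mef2a from -0.00024 to 0.0832. With the replicate number as a block, 10 genes were higher and 21 lower, and 29 of the 41 calls were kept. The block changed no count for the 8 genes, CREB targets or regulators. Deviations of same-numbered libraries had correlations of -0.027, 0.025 and 0.042 over genes. Correlations over all genes cannot exclude a tie between same-numbered mice, so whether the numbers pair the mice stays unknown. Removing low counts by filterByExpr or by no filter is the same test here, since 0 rows were removed.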
